A study of Arabidopsis thaliana with 6 samples.

Results

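The genes described here are those of the plastid genome of Arabidopsis thaliana that encode subunits of the photosynthetic complexes, of the plastid RNA polymerase and of the plastid ribosome, together with organelle ribosomal genes named in the same way. Members were the probe sets whose annotated symbol, read case-sensitively, begins with psa, psb, ndh, pet, rpo, ycf or rbc, is atp followed by a capital letter, or is rpl or rps followed by a digit. A probe set is a group of short oligonucleotides on an Affymetrix array that together report 1 transcript. The rule found 73 members among 22810 probe sets, or among 22746 once 64 control probe sets were set aside. Of the members, 72 stand for plastid genes and 1, annotated with both rps3 and rpl16, carries gene numbers that are not those of the plastid copies and was taken as mitochondrial. By complex, there were 5 probe sets for photosystem I, 15 for photosystem II, 6 for the cytochrome b6f complex, 6 for the ATP synthase, 11 for the NDH complex, 1 for Rubisco (rbcL) and 4 for the RNA polymerase. A further 9 stand for the large and 11 for the small subunit of the plastid ribosome, and 4 for ycf genes. Gene order was read from the RefSeq plastid genome (assembly TAIR10.1) and copy number from the gene numbers of the platform annotation, and rps12 has 2 probe sets. The 6 probe sets for rpl2, rpl23, ycf2, ndhB, rps7 and ycf1 each report a gene that the plastid genome holds in 2 copies, so the copies are read together.

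The plants were whole, dark-grown seedlings of the ecotype Columbia glabra, raised for 4 days at 23 °C on medium with no added sucrose. They then spent 6 h under anoxia with 90 mM sucrose, 6 h under anoxia without it, or 6 h in air, in darkness as far as the labels say. There are 2 arrays in each of the 3 groups, which the labels number as independent experiments 1 and 2. Total RNA of 4 seedling cultures was pooled for an array, so a value is already an average over cultures and the spread between arrays is the spread between experiments. Wherever a pair of values is given for a group, experiment 1 comes first and experiment 2 second.

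Plastids keep a small genome of their own, read by a bacterial-type RNA polymerase whose core subunits are plastid genes and by a nuclear-encoded phage-type polymerase. Many of its genes lie in clusters that are transcribed together into long precursors, which nuclear-encoded proteins then process, splice and stabilise, so the amount of a plastid transcript reflects both its synthesis and its survival. In seedlings grown in darkness the plastid is an etioplast, which lacks chlorophyll and a functioning photosynthetic chain but already transcribes these genes and builds part of the ATP synthase and cytochrome b6f complexes ahead of light. Bulk RNA from whole seedlings cannot tell more plastid genomes or plastids per cell, or more cells with plastids, from more RNA per plastid.

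Signals are the deposited intensities, with no call of presence or absence used. The lowest signal of any member on any array was 24.1, and all 73 members passed the filter on low values. PORB, the nuclear gene for a protochlorophyllide reductase of dark-grown seedlings, had signals of 522 and 3486 under anoxia with sucrose, 2004 and 2643 under anoxia, and 2812 and 1507 in air. It was the 1 of 3 listed protochlorophyllide reductases that was matched, by locus, to a probe set annotated with 1 symbol. LHCB4.1, an antenna protein of green plastids, read 1499 and 4212 under anoxia with sucrose, 2834 and 2945 under anoxia, and 5114 and 2294 in air, so its transcript was not absent in the dark. The members together made up 1.44% and 2.05% of the summed array signal under anoxia with sucrose, 1.2% and 3.01% under anoxia, and 0.920% and 2.38% in air. In all 3 groups the share was higher in experiment 2.

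The arrays were not of equal brightness or RNA quality. Median signals were 21.2 and 50.6 under anoxia with sucrose, 45.3 and 32.0 under anoxia, and 46.2 and 30.8 in air. To compare arrays, 16 was added to each signal, log2 was taken and the array's median was subtracted, and this value is called the level of a probe set. A change is a difference between levels, which understates the change of a dim gene, and levels do not rank the transcripts of different genes. Where a probe set is called bright or dim, that is its signal and not an amount of RNA relative to other genes. The array for anoxia with sucrose of experiment 1 stood apart by the GAPDH and actin controls. The ratio of 3′ to 5′ signal of the GAPDH control was 7.61 there and 1.38 to 2.42 on the other arrays, and the same ratio of the actin control was 21.6 against 1.70 to 4.24. By the ubiquitin control it did not stand apart, with 3.69 there, 4.17 on the air array of experiment 1 and 1.81 to 2.67 on the rest. The part of these differences in the results below was not tested. Results are therefore given within each experiment as well as over both.

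**Figure D1:**
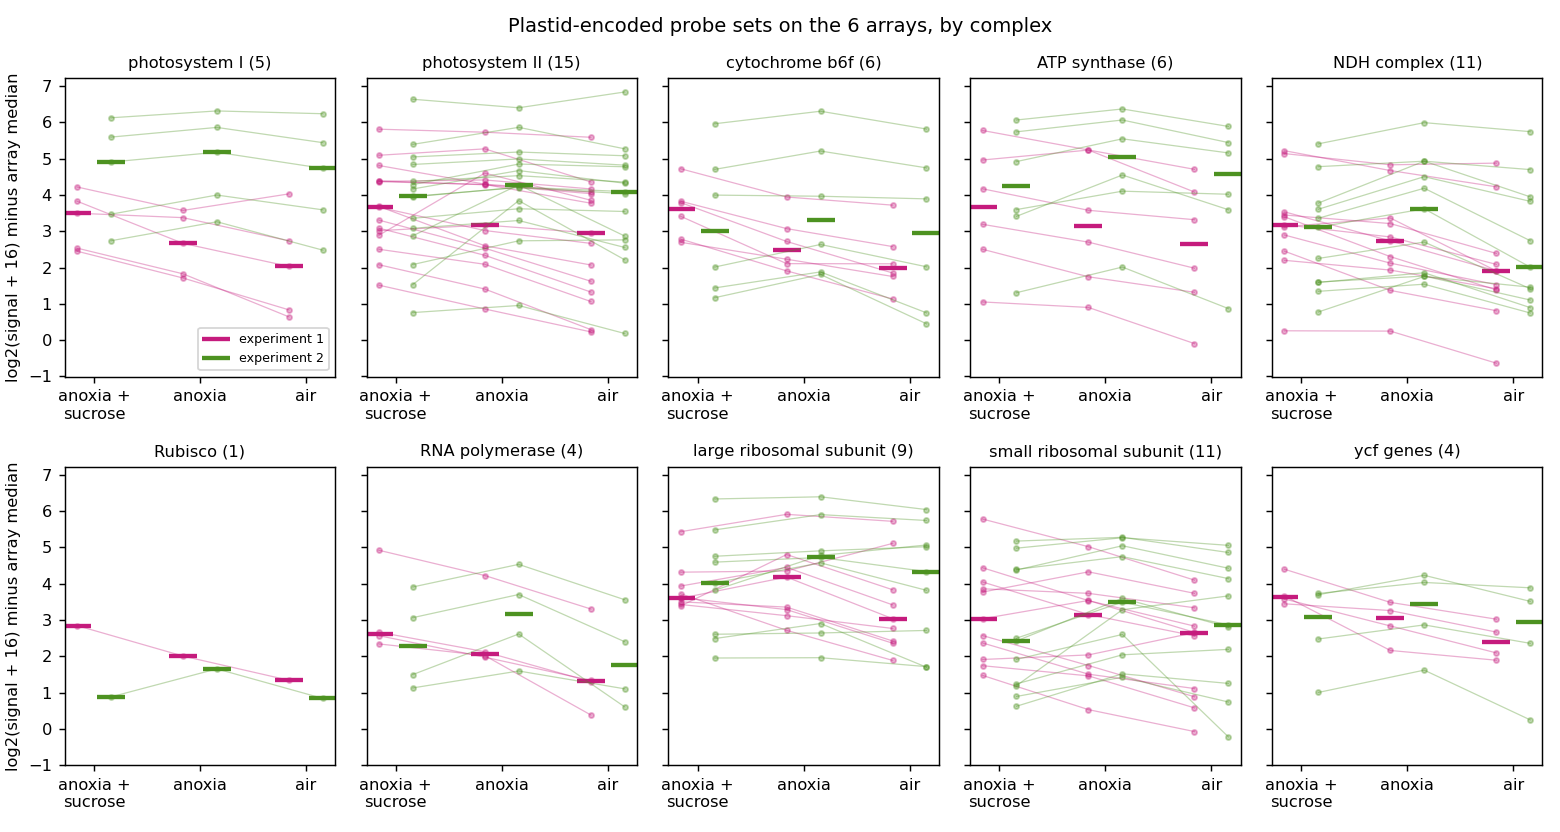
Levels (log2 of signal plus 16, minus the array median) of the plastid-encoded members in each of 10 complexes under anoxia with sucrose, under anoxia and in air. Thin lines are probe sets and bars are medians, in magenta for experiment 1 and green for experiment 2; in experiment 1 the medians step down from left to right in all panels but those of the ribosomal subunits, while in experiment 2 anoxia stands highest.

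Anoxia was compared with air to ask what the loss of oxygen does to these transcripts in darkness. Nearly all members lay higher under anoxia than in air, mostly by less than 2-fold, and most of them did so in both experiments. The median change of the 72 plastid-encoded members was 0.58 on the log2 scale (1.50-fold), at 0.64 in experiment 1 and 0.49 in experiment 2, while the median over all 15922 tested probe sets was 0.08, at 0.10 and 0.03. Of the 73 members, 70 had a change above 0, compared with 57.5% of all tested probe sets, and 64 were above 0 in both experiments, compared with 34.3%. The level in both anoxia arrays exceeded that in both air arrays for 22 members (18.9% of all tested probe sets did so) and lay below it for 1 (14.9%). The count above 0 leaned on single arrays: of the 72 plastid-encoded members 69 were above 0, against 43 without the air array of experiment 1 and 47 without the anoxia array of experiment 2, where arrays of different experiments are set against each other. With the experiment number as a block in the fit, 56 and 63 were above 0 without those arrays.

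No single member passed the test when both experiments were pooled. In limma with Benjamini-Hochberg adjustment over all tested probe sets, 0 of 73 members were called, beside 0.107% of all probe sets called higher and 0.126% called lower under anoxia, and 3 members had an unadjusted p under 0.05, all of them higher (2.29% of all probe sets). Standard errors of the members ran from 0.45 to 1.38, with a median of 0.61, because most members differed widely between the experiments. When the experiment number entered the fit as a block, the median standard error was 0.43. Then 1 member, rps14, was called higher (0.961% of all probe sets were), and 20 members, 27.4% of them, had an unadjusted p under 0.05 with a higher level (5.31% of all probe sets).

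The RNA polymerase subunits had the highest median change of any complex with several members, 1.02 (0.87 in experiment 1 and 1.14 in experiment 2), with 4 of 4 above 0 in both experiments. rpoB encodes the β subunit, which forms much of the catalytic core. Its signal was 220 and 172 under anoxia with sucrose, 251.5 and 278 under anoxia, and 137 and 55.3 in air. Both anoxia arrays lay above both air arrays, and the change was 1.42 ± 0.53 (SE, adjusted p = 0.671 with limma, 0.114 with the block). rpoC2, the gene for the β″ subunit, read 172.5 and 130 under anoxia with sucrose, 232 and 129 under anoxia, and 65.2 and 84.6 in air. Here the larger step came in experiment 1, 1.63, compared with 0.49 in experiment 2. For rpoC1, the gene for the β′ subunit, the signals were 205 and 541 under anoxia with sucrose, 225 and 609 under anoxia, and 141 and 231 in air. Its air array of experiment 2 exceeded the anoxia array of experiment 1, so the groups overlapped across experiments, though within each one anoxia was higher, by 0.64 and 1.3. rpoA, which encodes the α subunit that assembles the enzyme, lies apart from the other 3 at the end of a ribosomal gene cluster with changes of 0.92 and 0.97 in the experiments and signals of 1112 and 985 under anoxia with sucrose, 1131 and 1095 under anoxia, and 598 and 536 in air.

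The NDH complex passes electrons from ferredoxin back to plastoquinone around photosystem I. All of its 11 plastid-encoded members had a change above 0, with a median of 0.84 (0.76 and 0.79 within the experiments). ndhG, a membrane subunit, gave 308 and 560 under anoxia with sucrose, 616 and 574.5 under anoxia, and 218 and 173 in air. Anoxia stood well above air in both experiments, by 1.46 and 1.61, with a change of 1.53 ± 0.47 (SE, adjusted p = 0.441 with limma, 0.0677 with the block). ndhE followed at 0.98, with signals of 155 and 667.5 under anoxia with sucrose, 218 and 858 under anoxia, and 150 and 297 in air. Its response was mostly that of experiment 2, 1.44, compared with 0.51 in experiment 1. ndhF, the dimmest of the complex, read 28.5 and 153 under anoxia with sucrose, 56.9 and 124 under anoxia, and 24.1 and 62.7 in air, a change of 0.84 with 0.88 and 0.79 in the experiments. The exception was ndhC, whose probe set is among the brighter ones, with 1297 and 1815 under anoxia with sucrose, 1730 and 1449 under anoxia, and 1813 and 1201 in air. Its change of 0.09 ± 0.45 was below 0 in experiment 1 and above 0 in experiment 2, while its cluster neighbours ndhK and ndhJ had changes of 0.79 and 0.94.

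Photosystem II splits water in the light, and its genes ranged from a change of 1.32 to one of 0.12. The median change of its 15 members was 0.28, with all 15 above 0, and 13 above 0 in both experiments. psbA encodes D1, the reaction centre protein that is damaged and replaced most often in the light. It had signals of 300 and 176 under anoxia with sucrose, 294 and 674 under anoxia, and 140 and 201.5 in air. Both anoxia arrays lay above both air arrays, the change being 1.32 ± 0.69 (SE, adjusted p = 0.944 with limma, 0.331 with the block). psbB, the gene of a core antenna protein that binds chlorophyll, read 353 and 473 under anoxia with sucrose, 339 and 917 under anoxia, and 176 and 326 in air, a change of 1.16 ± 0.68. psbN, needed for assembly of the photosystem, gave 141 and 96.8 under anoxia with sucrose, 147 and 77.1 under anoxia, and 60.2 and 37.2 in air. Its change was 0.94 ± 0.47, with 1.12 in experiment 1 and 0.77 in experiment 2. At the other end stood psbE and psbF, which encode the 2 chains of the cytochrome of photosystem II, together with their neighbours psbL and psbJ. These 4 differed by only 0.12 to 0.21 between anoxia and air. psbF, for example, had signals of 2076 and 2190 under anoxia with sucrose, 3238 and 1729.5 under anoxia, and 2983 and 1569 in air, differences of 0.14 and 0.10 within the experiments. psbD and psbC, the genes of the D2 reaction centre protein and of the second core antenna protein, had changes of 0.25 and 0.24, less than their standard errors.

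Photosystem I was the complex with the widest distance between experiments. psaA and psaB encode the large proteins that carry its reaction centre. psaA read 188 and 1985 under anoxia with sucrose, 185 and 1722.5 under anoxia, and 95 and 1231 in air. Every array of experiment 2 lay far above every array of experiment 1, and within each experiment anoxia lay above air, by 0.88 and 0.44. psaB, with 404 and 3205 under anoxia with sucrose, 621 and 2777 under anoxia, and 399 and 2020 in air, had the same order of experiments and within-experiment changes of 0.64 and 0.42. psaC, which encodes the iron-sulphur subunit, gave 200 and 429 under anoxia with sucrose, 202 and 445 under anoxia, and 81.1 and 245 in air, a change of 0.98 ± 0.69. psaJ, a small membrane subunit, was the only photosystem I gene with a change below 0, at -0.19 ± 1.00. Its signals were 678 and 4642 under anoxia with sucrose, 714 and 3810 under anoxia, and 1001 and 3521 in air, so that anoxia lay below air in experiment 1 (-0.46) and close to it in experiment 2 (0.08).

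The cytochrome b6f complex links the photosystems, and after centring all of its 6 members had a change above 0 in both experiments (median 0.51). petD, which encodes subunit IV, gave 240.5 and 134 under anoxia with sucrose, 214 and 152 under anoxia, and 121 and 48.0 in air. The anoxia arrays lay above the air arrays, and the change was 1.07 ± 0.56. petN, a small subunit, read 499 and 165 under anoxia with sucrose, 388 and 161 under anoxia, and 208.5 and 62.9 in air, a change of 1.00 ± 0.75. Within each experiment anoxia was higher, though the signal on the anoxia array of experiment 2 was below that on the air array of experiment 1; after centring, the levels did not overlap, at 2.72 and 1.88 under anoxia and 1.85 and 0.75 in air. petB, the gene of cytochrome b6, had signals of 966.5 and 4139 under anoxia with sucrose, 928 and 3789 under anoxia, and 804 and 2624 in air, with changes of 0.22 and 0.49 within the experiments. petA, which encodes cytochrome f, had changes of 0.50 and 0.46, and petL had 0.00 and 0.07. As deposited, the signal of petL in experiment 1 was slightly lower under anoxia, at 248, than in air, at 251.5.

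The ATP synthase genes all had changes above 0, with a median of 0.57, and those for the membrane part of the enzyme spanned the range. atpI and atpH, for the a subunit and the c ring, had changes of 1.07 ± 0.49 and 1.06 ± 0.61, and atpF, for the b subunit, had 0.26 ± 0.96. atpI read 61.2 and 149 under anoxia with sucrose, 98.5 and 178 under anoxia, and 42.3 and 69.6 in air. The signals of atpH were 1146 and 693 under anoxia with sucrose, 2299 and 1109 under anoxia, and 1038 and 550 in air, so for both genes the anoxia arrays stood above the air arrays. atpA and atpB, for the α and β subunits of the catalytic head, had changes of 0.55 and 0.37, well within their standard errors of 1.13 and 1.05. atpB had signals of 654 and 4449 under anoxia with sucrose, 716 and 3956 under anoxia, and 605 and 2759 in air. The difference between experiments was far larger than that between anoxia and air. atpE, for the ε subunit, was steadier, with 2025 and 3545 under anoxia with sucrose, 2301 and 3201 under anoxia, and 1610 and 2023 in air, and had changes of 0.53 and 0.62.

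rbcL encodes the large subunit of Rubisco, the carbon-fixing enzyme. It read 251.5 and 107 under anoxia with sucrose, 230 and 135 under anoxia, and 141 and 67.7 in air. The anoxia arrays lay above the air arrays in both experiments, by 0.67 and 0.81, and the change of 0.74 ± 0.61 had an adjusted p of 1.00 in limma and 0.558 with the block. The ycf genes, which include assembly factors of photosystem I (ycf3 and ycf4), had 4 of 4 changes above 0 with a median of 0.57. ycf2, a long reading frame tied to protein import, had signals of 456 and 117.5 under anoxia with sucrose, 258 and 131 under anoxia, and 215 and 39.6 in air. Its change was 0.27 in experiment 1 and 1.37 in experiment 2.

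The ribosome held both extremes of the comparison. Of its 20 plastid-encoded probe sets, 18 had a change above 0, with medians of 0.57 for the large and 0.64 for the small subunit. rps14, a protein of the small subunit, had signals of 205 and 235 under anoxia with sucrose, 189.5 and 275.5 under anoxia, and 98.9 and 24.2 in air. The air array of experiment 2 was the lowest of the 6 by a wide margin and close to the dimmest signals of all members. The change was 1.84 ± 0.53 (SE), with 0.86 in experiment 1 and 2.82 in experiment 2, and it was not called in the pooled limma fit (adjusted p = 0.362) but was called with the experiment block (SE 0.44, adjusted p = 0.0272). The blocked call held without the air array (adjusted p = 0.00217) or the anoxia array of experiment 1 (0.000643), and was lost without the air array (0.300) or the anoxia array of experiment 2 (0.627). Without either array for anoxia with sucrose the change stayed at 1.84, but the call was lost. Those arrays enter the comparison only through the shared estimate of spread. These fits have 1 residual degree of freedom, so whether the call holds cannot be read from them. rpl20, of the large subunit, read 475 and 358 under anoxia with sucrose, 387 and 343 under anoxia, and 214 and 136 in air, a change of 1.02 ± 0.54. Both anoxia arrays exceeded both air arrays.

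rpl33 and rps18, ribosomal genes that lie side by side, were below 0 in both experiments, the only 2 of 73 members to be so (24.2% of all tested probe sets were). rpl33 encodes a small protein of the large subunit, and read 726 and 924 under anoxia with sucrose, 1234 and 1301 under anoxia, and 2132 and 1553 in air. Its change was -0.52 ± 0.48 (SE, adjusted p = 1.00 with limma, 0.700 with the block), with -0.76 in experiment 1 and -0.29 in experiment 2, and both anoxia arrays lay below both air arrays. rps18, of the small subunit, gave 124 and 136 under anoxia with sucrose, 236 and 451 under anoxia, and 374.5 and 577 in air. The difference between anoxia and air was -0.50 ± 0.60, at -0.61 and -0.38, with overlap between the groups across experiments.

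**Figure D2:**
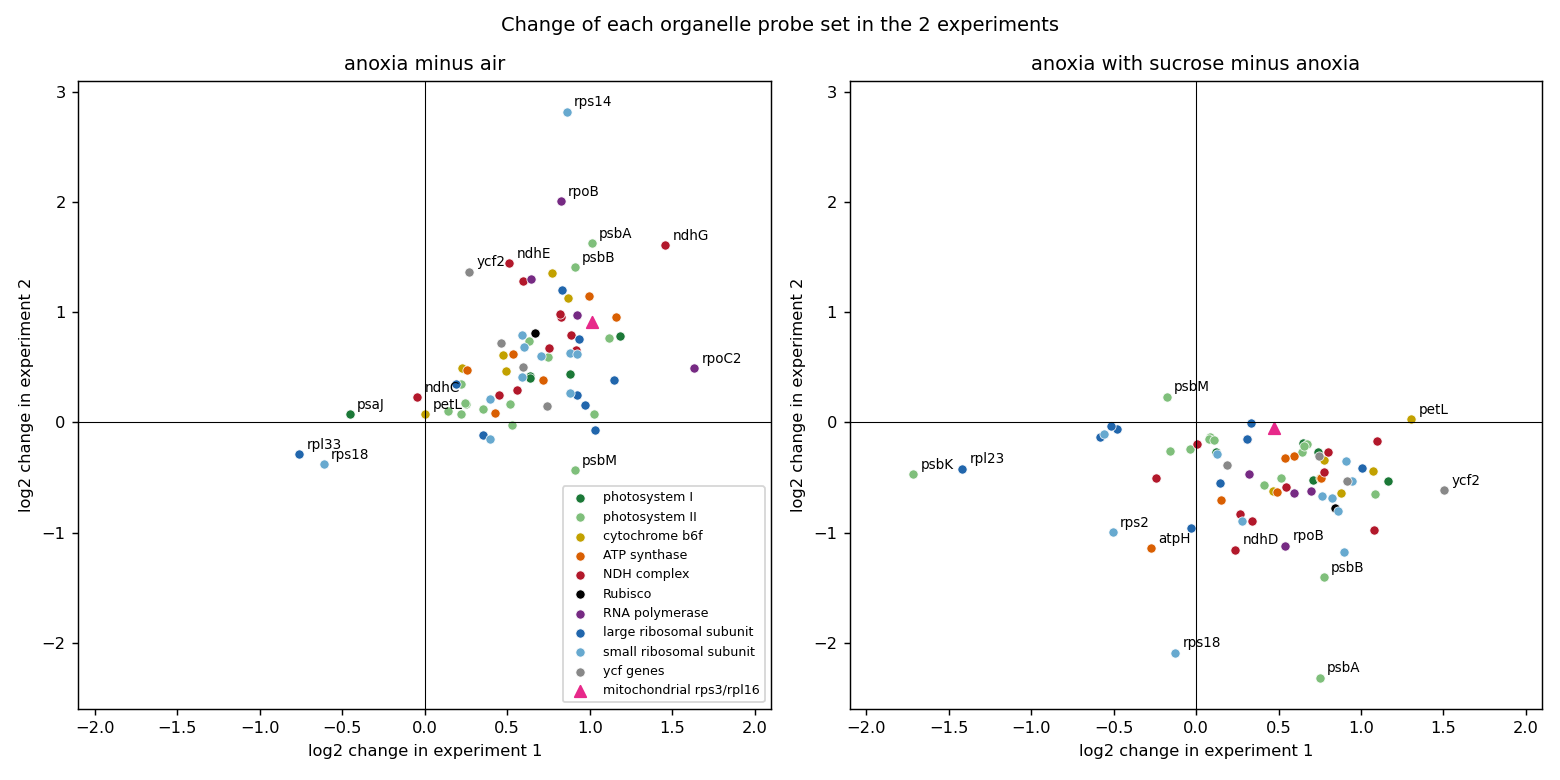
Log2 change of each member in experiment 1 (horizontal axis) and in experiment 2 (vertical axis), for anoxia minus air on the left and anoxia with sucrose minus anoxia on the right, coloured by complex. On the left 64 of 73 members lie above 0 on both axes, with rps14 highest and rpl33 and rps18 in the lower left; on the right, after centring, 59 members have opposite signs in the experiments.

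Seen along the plastid genome, genes of a cluster had changes of like size in several places. The clusters named here were chosen after the values were seen and get no test. rpoB, rpoC1 and rpoC2 lie in a row and had changes of 1.42, 0.97 and 1.06. In the row from rps2 through atpI, atpH and atpF to atpA the median was 0.75, and in the 7 genes from ndhH to ndhD, which include psaC, it was 0.90. The 4 genes from psbE to psbJ had a median of 0.18. The neighbouring row of petL, petG, psaJ, rpl33 and rps18 was the only one of the clusters in the plot along the genome with a median below 0, at -0.19 (-0.46 in experiment 1 and 0.07 in experiment 2). Its members still spread from 0.54 for petG to -0.52 for rpl33, so the row was not uniform. The next gene, rpl20, had a change of 1.02. In the row of psaA, psaB and rps14, the change of rps14 was 1.84 and those of psaA and psaB were 0.66 and 0.53. Across the 72 plastid-encoded members, the changes in the 2 experiments had a correlation of r = 0.439, with r = 0.381 across all tested probe sets. This describes probe sets that share the same 4 arrays and are not independent of each other.

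**Figure D3:**
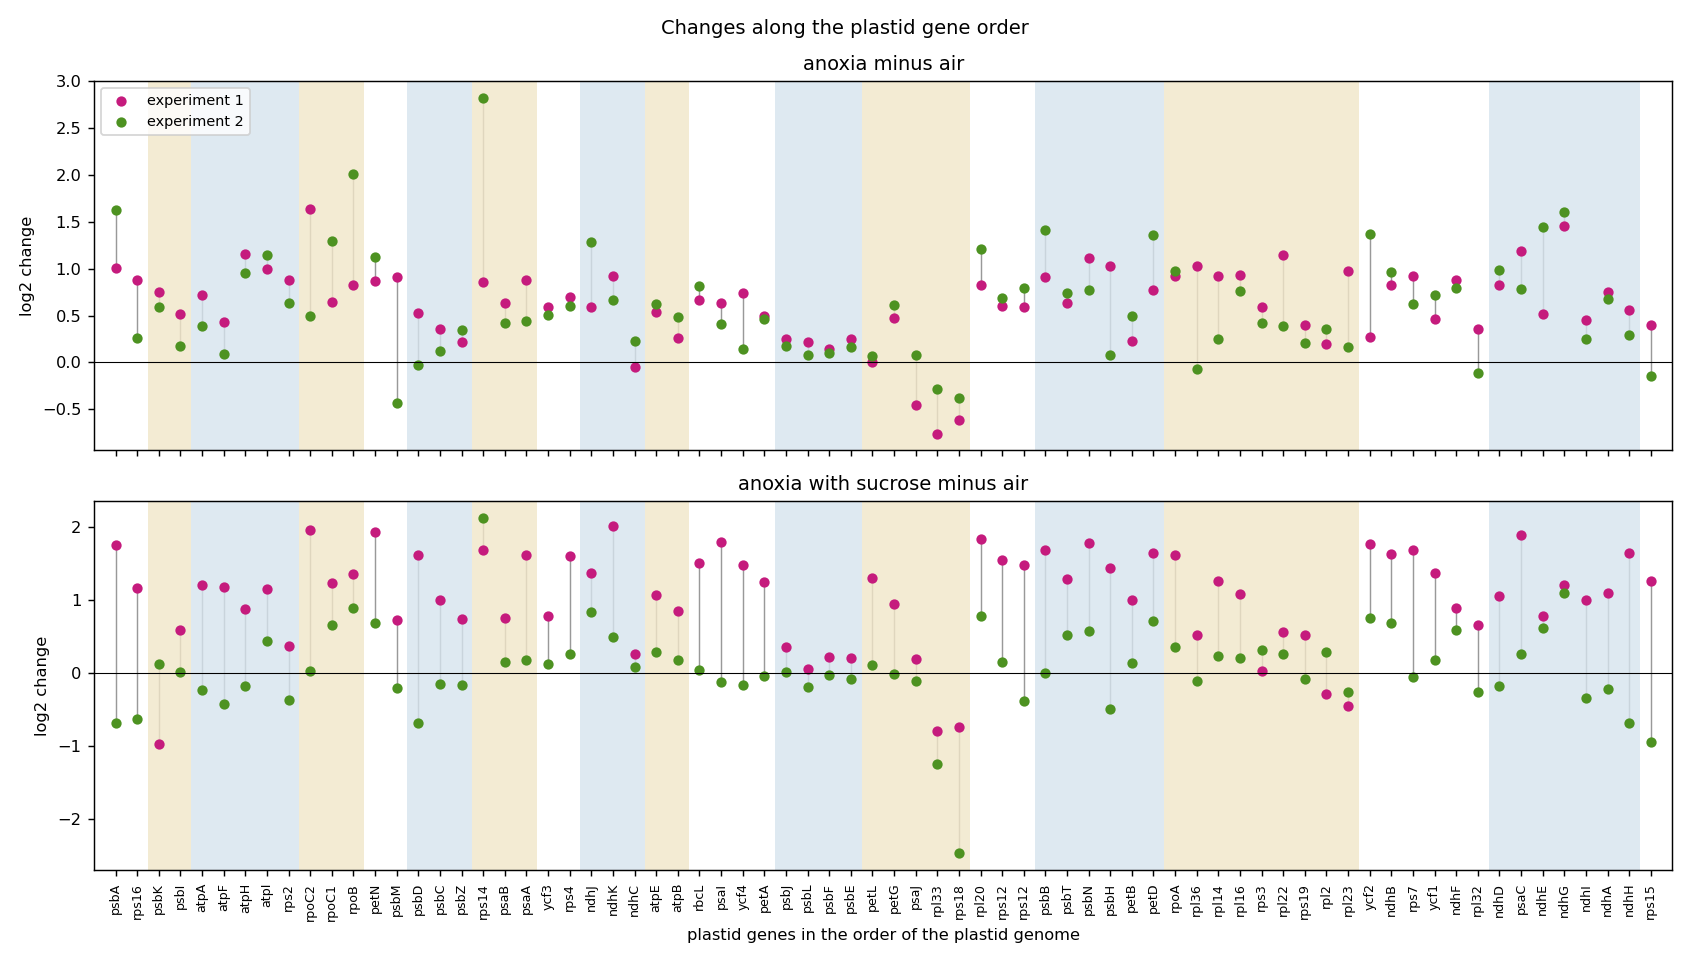
Log2 change of each plastid-encoded member in the order of its gene along the plastid genome, for anoxia minus air (top) and anoxia with sucrose minus air (bottom), with bands that mark the gene clusters named in the text. Magenta is experiment 1 and green is experiment 2; in the top panel most points of both experiments lie above 0, with a dip at rpl33 and rps18, which is deeper for rps18 in the bottom panel.

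Sucrose was added under anoxia to ask whether a supply of sugar alters the response, and for these genes the experiments gave opposite answers once the arrays were centred. In experiment 1 most members were higher under anoxia with sucrose than under anoxia alone, with a plastid median of 0.54, and in experiment 2 nearly all were lower, with a median of -0.49. Over both experiments the median was -0.01. In experiment 1, 59 of 73 members were above 0 (46.5% of all tested probe sets were), and in experiment 2, 71 of 73 were below 0 (42.1% of all). The experiments had opposite signs for 59 members, or 80.8%, where 53.1% of all tested probe sets did. Both experiments were above 0 for 1 member, petL (25.6% of all), and both were below 0 for 13 (21.2%). limma called 0 members in either direction, as it called 0.0% of all tested probe sets, and 0 members had an unadjusted p under 0.05. With the block it called 0 members, beside 0.0188% of all probe sets called higher, and the lowest adjusted p of a member was 0.999. At an unadjusted p under 0.05 with the block there were 3 members, all lower with sucrose (1.17% of all probe sets), namely psbK, rpl23 and rps18.

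The signs of these values rest on the scaling, so the shift of the members relative to all tested probe sets is given as well. In the values as deposited, 26 of 73 members were above 0 in experiment 1 and 37 in experiment 2, and the plastid medians were -0.18 in experiment 1 and -0.02 in experiment 2, while those of all tested probe sets were -0.77 and 0.54. Relative to all tested probe sets the members were thus shifted by 0.59 in experiment 1 and by -0.56 in experiment 2. Centring moves all probe sets of an array alike, so it cannot change this shift. Quantile normalization, a different scaling, gave shifts of 0.61 and -0.67. The 6 tested genes for nuclear-encoded photosystem and light-harvesting proteins had medians of -0.06 in experiment 1 and -0.16 in experiment 2 after centring, and PORB had changes of -1.19 and -0.08. On the array for anoxia with sucrose of experiment 1, the one with the high 3′ to 5′ ratios of GAPDH and actin, RCA (Rubisco activase) had a signal of 111, compared with 911 on the matching anoxia array. What part that array's RNA quality has in the experiment 1 values was not tested.

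By complex, the split was wide for the cytochrome b6f complex, with medians of 0.83 and -0.47 in experiments 1 and 2, for the small ribosomal subunit, with 0.76 and -0.69, and for rbcL, with 0.84 and -0.77. For photosystem I it was 0.71 and -0.27, for the RNA polymerase 0.57 and -0.63, for the ATP synthase 0.51 and -0.57, for the ycf genes 0.83 and -0.46, for photosystem II 0.41 and -0.26, and for the NDH complex 0.34 and -0.51. The large ribosomal subunit differed, with -0.03 and -0.15. Most of its members lie in the cluster that runs from rpl23 to rpoA, whose 9 genes analysed here had a median of -0.48 in experiment 1 and -0.13 in experiment 2. rpl23 read 373 and 2961 under anoxia with sucrose, 1696 and 2858 under anoxia, and 871 and 2490 in air. The sucrose array of experiment 1 was the lowest of the 6, and the change from anoxia was -0.92 ± 0.81, with -1.42 and -0.42 in the experiments. psbK, a small photosystem II subunit, showed the same feature, with 260 and 2787 under anoxia with sucrose, 1474 and 2781 under anoxia, and 885 and 1794 in air, and a change of -1.09 ± 0.84.

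The levels of the groups did not overlap for 4 members, all lower with sucrose than without (10.2% of all tested probe sets were), and for 0 members in the other direction (9.47%). These were rps18, rps2, rpl33 and ndhG. For rps18, with the signals given above, the change was -1.11 ± 0.60 (SE, adjusted p = 1.00 with limma, 0.999 with the block), of which -0.13 came in experiment 1 and -2.09 in experiment 2. rps2, of the small subunit, read 289 and 360 under anoxia with sucrose, 696 and 525 under anoxia, and 377 and 325 in air. Its change from anoxia was -0.75 ± 0.49, with -0.50 and -1.0 in the experiments. psbA had the widest split, with 0.75 in experiment 1 and -2.32 in experiment 2. petL, for a small cytochrome b6f subunit, gave 380 and 1048 under anoxia with sucrose, 248 and 734 under anoxia, and 251.5 and 679.5 in air, and had the highest change, 0.67 ± 0.76, nearly all of it from experiment 1.

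Anoxia with sucrose was compared with air as well, a comparison that shares the air arrays with the first comparison and the sucrose arrays with the second. The plastid median was 0.53, with 1.17 in experiment 1 and 0.03 in experiment 2, beside 0.06, 0.03 and 0.11 for all tested probe sets. In the values as deposited the plastid medians were 0.43 and 0.54, beside -0.71 and 0.61 for all tested probe sets. Of the 73 members 68 had a change above 0 (55.5% of all tested probe sets did), but 39 had it in both experiments (34.1%) and 3 were below 0 in both (23.2%). Of the 72 plastid-encoded members 67 were above 0, against 40 without the air array of experiment 1, and with the block 42 without the sucrose array of experiment 1. The levels of the groups did not overlap for 20 members that were higher (18.7%) and 2 that were lower (14.8%). limma called 0 members, beside 0.151% of all probe sets called higher and 0.1% called lower. At an unadjusted p under 0.05 there were 5 higher members (2.99% of all), rps14, ndhG, ndhJ, psbN and rpl20, and 1 lower one (3.76%), rps18. With the block 1 member was called higher (1.62% of all probe sets), again rps14, and 21 members, 28.8% of them, had an unadjusted p under 0.05 with a higher level (7.01%).

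For rps14 the change from air was 1.91 ± 0.53 (SE, adjusted p = 0.295 with limma). With the experiment block the standard error was 0.44 and the adjusted p 0.0178, and the within-experiment values were 1.69 and 2.13. With 1 array left out of the blocked fit, the change was 2.51 without the air array of experiment 1. Without either anoxia array it stayed at 1.91. It was 1.31 without the air array of experiment 2, the low one. Without the sucrose array of experiment 1 it was 1.64, and without that of experiment 2 it was 2.18. The call was not kept without the air array of experiment 2 or without either sucrose array. Whether it holds cannot be read from these fits, which have 1 residual degree of freedom.

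rps18 lay furthest below air, with both sucrose arrays, at 124 and 136, below every other array of the series. The change from air was -1.61 ± 0.60 (SE, adjusted p = 0.561 with limma, 0.0847 with the block), at -0.74 and -2.47. rpl33 also had both sucrose arrays below all others, with a change of -1.02 ± 0.48 (adjusted p = 0.213 with the block), at -0.79 and -1.25. In each experiment the signal of both genes was lowest with sucrose, higher under anoxia alone and highest in air. After centring, the step between sucrose and anoxia was small in experiment 1. The levels there were 4.32 with sucrose and 4.35 under anoxia for rpl33, and 1.91 and 2.04 for rps18. Other members well above air were petN at 1.31 ± 0.75, rpl20 at 1.31 ± 0.54, ycf2 at 1.26 ± 0.82 and ndhK at 1.25 ± 0.60, with all 4 above 0 in each experiment. ndhK, an iron-sulphur subunit of the NDH complex, read 377 and 186 under anoxia with sucrose, 286 and 147 under anoxia, and 146.5 and 84.8 in air. The RNA polymerase stayed among the highest complexes, with a median of 0.99 (1.49 and 0.51) and with the levels of 4 of 4 members not overlapping with air.

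For some members, psaA among them, the distance between the experiments was far larger than that between the treatments. After centring, experiment 2 differed from experiment 1 by a plastid median of -0.20 with sucrose, 0.79 under anoxia and 0.85 in air. In the values as deposited these medians were 0.64 with sucrose, 0.43 for anoxia and 0.44 for air, while the array median itself moved by 0.84, -0.35 and -0.41. After centring, the medians of all tested probe sets were 0.00, -0.13 and -0.07 in the same order. Single genes went much further than the median, and in opposite directions. For psaA the difference was 2.46 for anoxia with sucrose, 3.47 for anoxia and 3.90 for air. psbH, a small photosystem II subunit, read 195 and 1283 under anoxia with sucrose, 245 and 1371 under anoxia, and 114 and 1268 in air, differences of 1.78, 2.76 and 3.71 in that order. atpA, with 324 and 2002 under anoxia with sucrose, 382.5 and 2230 under anoxia, and 230 and 1657 in air, differed by 1.73, 2.85 and 3.18. Each of these genes stood higher on every array of experiment 2. In contrast, ycf2 was lower in experiment 2 in every group, with differences of -2.66 with sucrose, -0.54 for anoxia and -1.64 for air. petN (-2.35, -0.84 and -1.10), ndhB (-1.95, -0.88 and -1.01) and rpl36 (-1.33, -1.81 and -0.71) were lower too.

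The order of the members by their difference between experiments was alike in the 3 groups. After centring, its size was alike in anoxia and air, with plastid medians of 0.79 and 0.85. With sucrose its size and often its sign differed from these, at a median of -0.20. As deposited, the medians were 0.64 with sucrose, 0.43 for anoxia and 0.44 for air. For psbA the difference was -1.56 for anoxia with sucrose, 1.51 for anoxia and 0.89 for air, and the median of the small ribosomal subunit was -0.66, 0.86 and 0.81 in the same order. Of 73 members, 33 were higher in experiment 2 in all 3 groups, where 18.2% of all tested probe sets were, and 13 were lower in all 3, where 26.6% were. Across the 72 plastid-encoded members, the difference between experiments correlated at r = 0.890 between anoxia and air, 0.836 between anoxia with sucrose and air, and 0.803 between anoxia with sucrose and anoxia. Over all 15922 tested probe sets these were 0.383, 0.392 and 0.562. The members share genome, arrays and clusters, so this is a description. By complex, the difference was widest in photosystem I, with medians of 1.91 for anoxia with sucrose, 2.49 for anoxia and 2.21 for air, followed by the ATP synthase, with 0.67, 1.74 and 1.77. The experiments also differed in an array control for cytosolic ribosomal RNA: the probe set for the 25S species gave 848 and 8.2 under anoxia with sucrose, 1211 and 4.2 under anoxia, and 168 and 12.5 in air. Its part in the difference between experiments was not tested.

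**Figure D4:**
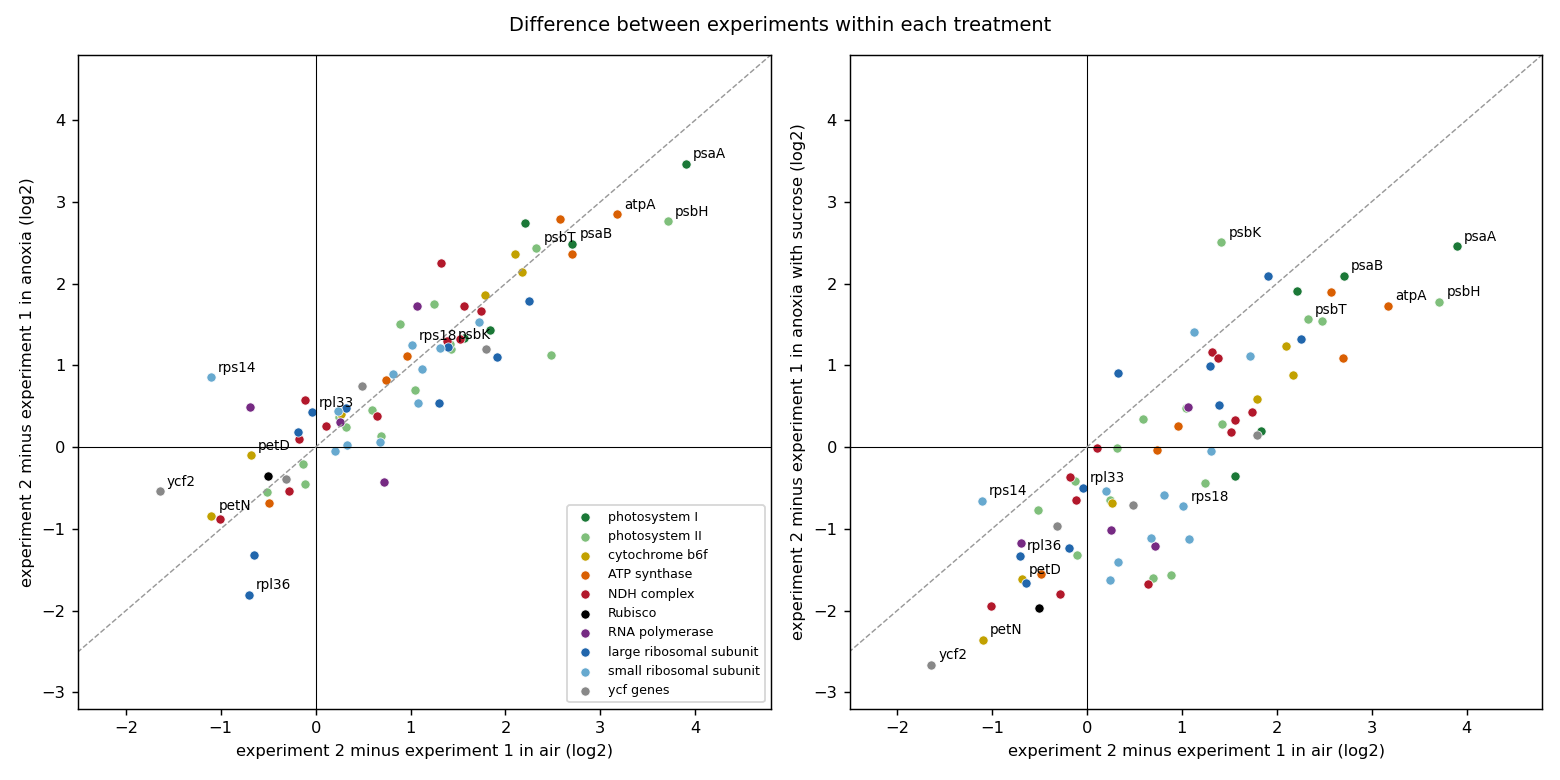
Difference in level between experiment 2 and experiment 1 of each member in air (horizontal axis, log2) plotted against the same difference under anoxia (left, vertical axis) and under anoxia with sucrose (right), with a dashed line where both are equal. Points lie near the line on the left, from ycf2 at the lower left to psaA at the upper right, and on the right most lie below it.

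The mitochondrial member, which reports rps3 and rpl16 of the mitochondrial ribosome, was above air in both anoxic groups and both experiments. It had signals of 102.5 and 331 under anoxia with sucrose, 124.5 and 243 under anoxia, and 54.7 and 119 in air. The change from air was 1.17 ± 0.60 under anoxia with sucrose (1.49 and 0.86 in the experiments, adjusted p = 0.117 with the block) and 0.96 ± 0.60 under anoxia (1.01 and 0.91, adjusted p = 0.275 with the block). Between anoxia with sucrose and anoxia the change was 0.21, at 0.47 and -0.05. A further 5 probe sets that pair an organelle ribosomal symbol with a nuclear locus of the AT2G07 region are not members under the rule, since they may also read a nuclear copy. Against air their median was 1.11 under anoxia with sucrose and 0.80 under anoxia. In either comparison 5 of 5 were above 0 in both experiments (34.1% and 34.3% of all tested probe sets were). In limma 0 of them were called, and with the block AT2G07725/rpl5 was called higher under anoxia with sucrose (1.58, adjusted p = 0.0114) and under anoxia (1.64, adjusted p = 0.0101).

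Genes around the members give the setting. Another 5 plastid genes outside these complexes, accD, clpP, matK, cemA and ccsA, had a median change of 0.48 under anoxia against air (0.60 and 0.35 in the experiments). With sucrose against anoxia the same genes had medians of 1.11 and -0.65, after centring, with opposite signs as in the members. accD, for a subunit of acetyl-CoA carboxylase, read 534 and 299 under anoxia with sucrose, 374 and 341 under anoxia, and 183 and 209 in air. Listed nuclear partners were matched by locus to probe sets annotated with 1 symbol. This found 6 of 36 photosystem and light-harvesting genes, and 2 of 10 for Rubisco, the cytochrome b6f complex, plastocyanin and the ATP synthase. These values therefore stand for few of the partners. The 6 photosystem and light-harvesting genes had a median of -0.18 against air, with 0 called and with medians of -0.88 and 0.56 in the experiments. RCA and ATPC1, for Rubisco activase and the γ subunit of the ATP synthase, had a median of -0.23 (-1.25 and 0.80), and PORB had 0.15 (-0.46 and 0.77). In experiment 1 these nuclear medians were thus below 0 and the plastid median above 0, and in experiment 2 both were above 0. Whether nuclear and plastid genes differ was not tested. Of the markers for other cells, AUR1 of dividing cells had a change of -0.12, EXPA18 of root hairs -0.86 and FMA of the stomatal lineage 0.41 between anoxia and air, with 0 called. The part of cell composition in the results was not tested.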

How the data were processed

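RNA from 6 samples of whole seedlings was read on 6 arrays. Intensity is the unit of the deposited tables, linear, with 1 value per probe set. Per the labels, targets were made by standard Affymetrix procedures. Which software, background correction and scaling were used is not stated in the sources used here. Groups and experiment numbers come from the sample titles, and 0 columns had no sample.

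After 64 control probe sets were removed, a pseudocount of 16 was added to the intensity, log2 taken and the array median subtracted. Tests ran on the 15922 probe sets whose mean reached the 30th percentile. limma 3.58.1 in R 4.3.3 fitted 1 coefficient for each group to all 6 arrays, with trended eBayes, two-sided tests, Benjamini-Hochberg adjustment over all tested probe sets and a threshold of 0.05. There were 3 residual degrees of freedom and the prior added 6.97. The number of arrays limits the precision. The steps were tested on simulated data.

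Because each group has an experiment 1 and an experiment 2 by title, the numbers were taken to pair the arrays, although nothing says that a day was shared. Differences between replicates correlated at r = 0.383 between anoxia and air, 0.392 between anoxia with sucrose and air, and 0.562 between anoxia with sucrose and anoxia. The fit with the experiment as a block stands beside results it changes.

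Symbols come from the platform annotation. RefSeq's TAIR10.1 table gave genomes, gene order and the loci by which listed nuclear genes were matched. Of the plastid genes that meet the rule, 2 are not analysed here. Genes are named by rule: members called in either fit, the brightest and dimmest members of each complex, the members with the largest and smallest changes, and up to 3 members of each background list. Others, among them those given for their cluster or for their difference between experiments, were named after their values were seen. The members and lists were chosen with earlier results of these data known. The lists of nuclear genes for plastid transcription and for organelle RNA turnover had 1 matched gene each, which was removed by the filter, so they give no result. Alternatives were other pseudocounts, filters and scalings, no intensity trend, only the arrays compared, the block, leaving out each array, a threshold of 0.01, and narrower or wider membership.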

Additional observations from a re-analysis of the deposited data

Results flagged for a closer look

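The control probe set for 25S ribosomal RNA (AFFX-Athal-25SrRNA_s_at), which lies outside the tested probe sets, was higher under anoxia than in air in experiment 1. Its signal was 848.2 and 8.2 under anoxia with sucrose, 1211.3 and 4.2 under anoxia, and 167.5 and 12.5 in air (experiments 1 and 2). The excess over air was thus present in experiment 1 and absent in experiment 2. The difference was not tested.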

How the results depend on the processing

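The experiment block, which pairs the arrays, raised the number of members called from 0 to 1 for anoxia against air and from 0 to 1 for anoxia with sucrose against air, rps14 in both. It changed no other call of a member. The other planned settings that leave out no replicate called 0 members in every comparison. The plastid median for anoxia with sucrose against anoxia turned from -0.01 to 0.075 with a pseudocount of 1, and the cause was not tested. The mitochondrial member's change between anoxia and air, 0.96, was 1.09 and 0.71 with pseudocounts of 1 and 64, 0.89 with trimmed-mean scaling and 0.88 as a median with the 5 probe sets of mixed annotation. The scaling by trimmed means, the wider membership and the block with an array left out were chosen after seeing the data. With 1 symbol per probe set only, no mitochondrial member is left and no value could be given.

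Leaving out 1 array, with or without the block, gave 0 to 2 members called for anoxia against air, 0 to 0 for anoxia with sucrose against anoxia and 0 to 3 for anoxia with sucrose against air. rpoB, rpoC2, psbN or rps18 were called in some of these fits and in no fit with all arrays. All these calls came with the block, where 1 residual degree of freedom is left, so they decide nothing. Where members were called, their share called was below that of all tested probe sets. The exception was anoxia against air with the experiment 1 anoxia array omitted. Without the block, fits with 1 array left out set arrays of different experiments against each other. For anoxia against air the plastid median then ran from 0.15 to 1.01 and the mitochondrial value from 0.29 to 1.63. For anoxia with sucrose against air they ran from 0.08 to 1.07 and from 0.50 to 1.84. For anoxia with sucrose against anoxia they ran from -0.40 to 0.28 and from -0.41 to 0.83. In experiment 2, omitting the anoxia array turned that plastid median to 0.28 and omitting the sucrose array turned it to 0.02. The mitochondrial value turned to -0.41 when the anoxia array of experiment 1 was omitted, and to -0.14 when the sucrose array of experiment 2 was.

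With every scaling, pseudocount and filter tried on all 6 arrays, 67 to 69 of the 72 plastid-encoded members had a change above 0 between anoxia and air, and leaving out 1 array gave 43 to 70, the block included. Without centring, the median of all tested probe sets for anoxia with sucrose against anoxia moved to -0.14. Signals near the pseudocount, as for rps14 and ndhF in air, limit the size of the changes given for those genes.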

Other observations

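Other genes of the mitochondrial genome lay higher in both anoxic groups than in air, as the mitochondrial ribosomal member did. Of 27 listed genes, 11 matched the array annotation by symbol. They gave 18 probe sets, of which those of nad2 and nad7 were removed by the filter. The 16 tested ones, several of them for nad1, stand for subunits of the respiratory chain and for matR, a maturase. Their median change was 1.1 for anoxia with sucrose against air (1.56 and 0.65 in experiments 1 and 2) and 0.88 for anoxia against air (1.00 and 0.71). Some had signals near the pseudocount in air, such as matR at 3.5 and 18.7, which limits the size of their changes. Over both experiments 16 of 16 had a change above 0 in either comparison (55.5% and 57.5% of all tested probe sets did), and within experiment 1 a probe set of nad1 was below 0 between anoxia and air, at -0.12. limma called 0 of them in either comparison, and with the experiment block 6 and 2 of them were called higher (1.62% and 0.961% of all tested probe sets), with probe sets of nad1, nad5 and cox1 among the first and of nad1 and nad5 among the second. Between anoxia with sucrose and anoxia the median was 0.38, with 0.69 in experiment 1 and -0.08 in experiment 2. Both comparisons with air share the air arrays.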
